A study of Mus musculus with 2 samples.

Results

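Enpp2 transitional capillary cells are a group of mouse lymph node blood endothelial cells that was picked out cell by cell from measured UMI counts (a UMI, or unique molecular identifier, labels a single captured RNA molecule). A cell entered the group when its summed UMIs of Enpp2, Serpinb1a, Lipg and Inhbb (the T panel) reached 2 and exceeded the sum of each of 5 other marker panels. Before that, a cell needed at least 500 detected genes, at most 10% mitochondrial UMIs and a dominant pool tag. It also needed at least 3 UMIs of Flt1, Ly6c1 and Cd34 together, more than its UMIs of the lymphatic genes Prox1, Pdpn, Mmrn1 and Lyve1, and fewer than 20 UMIs of Glycam1. Of 10612 barcodes in all, 9919 passed the cell filters, 5260 were blood endothelial cells with fewer than 20 Glycam1 UMIs, and 1722 were members of the Enpp2 group, 1179 in library 1 and 543 in library 2. Members were thus 32.7% of the blood endothelial cells so defined and 17.4% of all passing cells.

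The study isolated endothelial cells from lymph nodes of tamoxifen-treated mice, either WT or Xbp1-KO, and ran them as 2 droplet libraries of 3′ RNA. Each library mixed 4 pools told apart by a hashtag, 1 for each combination of genotype (WT or Xbp1-KO) with tissue (peripheral or mesenteric nodes). CD45-positive blood cells were depleted and endothelial cells sorted, per the labels' protocols. The labels do not give the Cre line, the cells in which it acts, the age or sex of the mice, or how many animals each pool held. Tamoxifen was given to the WT mice too, so no untreated group exists in these comparisons. Cells are not replicates: UMIs of members were summed per library and pool, which gives 8 sums, 4 per tissue, 4 per genotype and 2 per combination. The labels do not say how many animals stand behind a library, so p-values measure the spread between these sums only.

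Enpp2 encodes autotaxin, the secreted enzyme that makes lysophosphatidic acid, which promotes lymphocyte entry across the wall of high endothelial venules. These venules carry Glycam1, Ccl21a and sulphated mucins and take blood lymphocytes into the node, while node capillaries express Gpihbp1, Rgcc, Cd36 and other genes of fatty acid and fluid exchange. Serpinb1a is an intracellular inhibitor of neutrophil proteases, Lipg is endothelial lipase and Inhbb is the beta B chain of activin and inhibin. XBP1 raises genes of the endoplasmic reticulum when unfolded protein accumulates there or secretion is high.

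Member sums held 75 to 415 cells and 336473 to 1504627 UMIs, and the median member had 3360 UMIs. No member barcode occurred in the other library, although 3 barcodes of the series did. The doublet caller Scrublet marked 28 members in library 1 and 0 in library 2, and cells with more than 1 strong tag had already been left out by the tag rule. Xist, the X-inactivation transcript, stood at 34.6 and 24.5 CPM (counts per 1000000 UMIs of the sum) in members of the peripheral and mesenteric WT pools of library 1, and at 579 and 649 CPM in the Xbp1-KO pools of that library. In library 2 the order was reversed, with 772 and 651 CPM in the WT pools and 4.91 and 0 CPM in the Xbp1-KO pools. Ddx3y, a Y-linked gene, went the other way, with 106 and 72 UMIs in the WT pools of library 1 against 1 and 1 in those of library 2, and 2 and 0 against 64 and 81 UMIs in the Xbp1-KO pools. Pools of the same genotype in the 2 libraries thus held cells of animals of different sex. Within each library genotype and sex cannot be told apart, and genotype results are also given for each library.

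The panel genes chose the members, so their levels are a description only. Enpp2, on chromosome 15 at 54838901 to 54952892 (minus strand, GRCm38), was present in 97.3% of members and supplied 83.0% of the T panel UMIs. Serpinb1a was present in 41.1%, Inhbb in 19.9% and Lipg in 11.1% of members. Enpp2 was the sole T gene in 42.2% of members, and 55.8% carried at least 2 T genes. Enpp2 reached 1784 ± 263 CPM in members (mean ± SD over 8 pools), against 142 ± 66.2 in cells of the P panel (Penk, Col13a1, Efhd1) and 243 ± 38.9 in cells of the S panel (Scgb3a1, Srarp, Thrsp), the other main capillary classes. By pool, Enpp2 stood at 1949, 1760, 2178 and 1573 CPM in peripheral members and at 1770, 1664, 2024 and 1354 CPM in mesenteric members, ranges that overlap.

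Enpp2 and Serpinb1a did not set members apart from cells with at least 20 Glycam1 UMIs, the high endothelial cells of these data. Enpp2 averaged 1663 ± 584 CPM and Serpinb1a 263 ± 94.5 CPM in those 380 cells, against 268 ± 66.5 CPM for Serpinb1a in members. Inhbb and Lipg differed more. Inhbb averaged 83.1 ± 27.1 CPM in members and 3.77 ± 4.10 in the Glycam1-rich cells, and Lipg 41.2 ± 9.86 against 18.6 ± 13.3. All 4 genes were low in cells of the V panel (Vwf, Cytl1, Selp), where Enpp2 averaged 208 ± 121 CPM.

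Free RNA gives some UMIs in cells that do not make a gene. With every cell thinned to 2000 UMIs, Enpp2 was seen in 34.9% of peripheral and 22.2% of mesenteric lymphatic cells, and in 16.3% to 31.9% of P and S panel cells. By the same measure it was seen in 93.1% of peripheral and 87.6% of mesenteric members. Members were chosen on their T sum, and Enpp2 supplied 83.0% of those UMIs, so their higher share was largely set in advance by the rule. For Enpp2 this contrast is a description only and cannot tell expression from free RNA. Glycam1 was seen in 31.2% and 32.2% of members, against 29.9% and 24.5% of P panel, 36.2% and 28.9% of S panel and 46.7% and 49.5% of lymphatic cells. Lymphatic cells averaged 3041 ± 1595 CPM of Glycam1 and members 223 ± 130 CPM. Lymphatic cells may thus make it and are no background class for this gene. Most members hold too few Glycam1 UMIs to tell expression from free RNA. Mesenteric members with 1 to 4 Glycam1 UMIs had 2146 CPM of Ccl21a and 391 CPM of Madcam1, against 1016 and 168 CPM in those with 0, at median depths of 3484 and 3497 UMIs. In peripheral members the same bins had 389 against 237 CPM of Ccl21a and 8.39 against 7.38 CPM of Madcam1. Mesenteric P and S panel cells had 138 against 61.5 CPM of Ccl21a and 5.74 against 9.34 CPM of Madcam1. Before thinning, 47.0% and 45.4% of members had a Glycam1 UMI, at median depths of 3285 and 3592 UMIs, and 66.8% of lymphatic cells did, at median depths of 5396 and 5880 UMIs.

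The threshold lay on a gradual scale. The T sum was 2 in 222 members, 3 to 4 in 416, 5 to 9 in 548 and 10 or more in 536. Cells just outside, with a T sum of 1 above all other panels, numbered 105. These had 0 UMIs of every other panel, while 18.6% of all members did, and the part of this in the differences below was not tested. A further 721 blood endothelial cells reached a T sum of 2 or more but had another panel at least as high. Between cells at a T sum of 2 and the 105 just outside, Gpihbp1 was 1160 against 1554 CPM, Plpp3 1370 against 1493 and Rbp7 727 against 769. Genes of fatty acid handling were further apart: Cd36, a fatty acid transporter, was 521 against 1299 CPM, Fabp4, a fatty acid binding protein, 3545 against 9210 and Aqp7, a glycerol channel, 36.7 against 82.2. The lipid list summed to 6902 against 13950 CPM.

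Some genes of high endothelium were higher, and some of capillaries lower, in members with more T panel UMIs, given here as a description. The high endothelial list summed to 1899, 2060, 2258 and 4869 CPM from a T sum of 2 to 10 or more, and much of the last step was Ccl21a. The capillary list went from 17020 to 14200 CPM. Within the lists Chst2 (119 and 123 CPM at the ends) and Cd300lg (671 and 647 CPM) stayed near level, and Aqp1 went up from 1630 to 2921 CPM. Ccl21a, the chemokine that draws lymphocytes into nodes, was at 33.2 CPM at a T sum of 2, at 95.4 and 380 CPM in the next steps and at 2512 CPM at 10 or more. The 33 mesenteric members with 5 to 19 Glycam1 UMIs had 14060 CPM of it, against 1016 CPM at 0, and the 21 such peripheral members 3357 CPM, against 237 CPM at 0. Ubd, a ubiquitin-like protein, went from 45.4 to 309 CPM, and the fucosyltransferase gene Fut7 from 7.0 to 79.9 CPM. Rbp7, a retinol-binding protein of capillaries, went the other way, from 727 to 101 CPM. Gpihbp1, which carries lipoprotein lipase on capillary walls, went from 1160 to 461 CPM and Plpp3, a lipid phosphatase that degrades lysophosphatidic acid, from 1370 to 595 CPM. Plvap, of fenestrated walls, was 2806 and 3117 CPM at the 2 ends. Median depth moved with the T sum, from 2290 to 4606 UMIs per cell; its part in the steps was not tested.

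**Figure D1:**
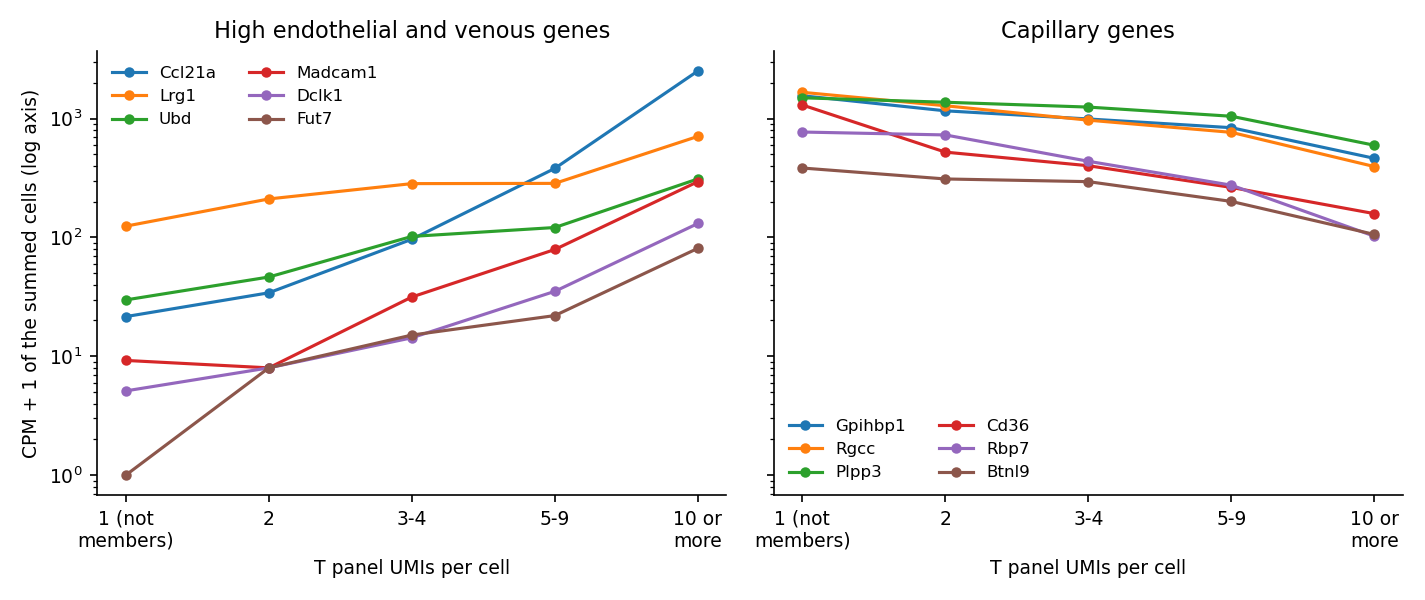
CPM plus 1 (log axis) of 6 high endothelial or venous genes and 6 capillary genes in cells grouped by T panel UMIs, with the 105 cells just outside the rule at the left; each point is the sum over all cells of that bin. Ccl21a goes from 33.2 to 2512 CPM between a T sum of 2 and 10 or more, while Rbp7 goes from 727 to 101 CPM.

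Clustering of all 5640 blood endothelial cells without the rule's genes gave 15 clusters, and members lay in many of them. Members made up 79.3% of a cluster led by Cxcl9, H2-Aa, H2-Ab1 and Hamp and 67.8% of a cluster led by Serpine2, Stc1 and Igfbp3, and those clusters together held 744 members, or 43.2%. Another 337 members shared a cluster led by Igfbp3 and Serpine2 with S panel cells. A cluster led by Penk, Col13a1 and Itm2a held 144 members, 142 of them peripheral, and a cluster led by haemoglobin and heat shock genes held 162, of which 140 were mesenteric. A cluster led by Glycam1, Madcam1 and Ccl21a, which held 320 of the Glycam1-rich cells, held 70 members. Of these 70, 63 were mesenteric, which is 10.4% of mesenteric and 0.627% of peripheral members. In the pools this share was 8.0% to 13.0% of mesenteric and 0.251% to 1.03% of peripheral members, so the tissues did not overlap. Smaller numbers lay with lymphatic-gene cells (36), stromal-gene cells (8) and blood-cell-gene cells (9).

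The label was set against fixed marker lists. The summed level of 17 capillary genes was 13740 to 14870 CPM in peripheral and 14500 to 17770 CPM in mesenteric members, against class means of 18040 in P and 20990 in S panel cells and 6669 in Glycam1-rich cells. The 17 high endothelial genes summed to 2157 to 2470 CPM in peripheral and 3878 to 6101 CPM in mesenteric members, against 2326, 1964 and 21970 CPM in the same classes. Chst4, a sulphotransferase that defines high endothelium, was near 0 in members of either tissue (0.239 and 1.98 CPM). Markers of other cell types were low: 8 lymphatic genes summed to 38.6 to 225 CPM per pool (3716 in lymphatic cells), 11 stromal genes to 3.68 to 285 CPM and 10 leukocyte genes to 2.97 to 188 CPM. The capillary list does not separate capillary cells from other vessels, since it summed to 21580 CPM in V panel and 16250 CPM in arterial panel cells. The 9 venous genes summed to 1186 CPM in members, 648 in P, 650 in S, 2989 in V panel and 4149 CPM in Glycam1-rich cells. The rule capped Glycam1 and asked for more blood than lymphatic UMIs, so distance from high endothelial and lymphatic cells was partly set in advance. It was not shared by all members: the 33 mesenteric members with 5 to 19 Glycam1 UMIs summed to 18770 CPM on the high endothelial list. These lists by themselves do not show that members are capillary. That cells pass from one state to another is not something these counts measure.

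Members differed from P and S panel cells in genes the rule did not name, but the rule used this contrast, so no test is given. The comparison covers 3307 genes with at least 50 CPM in members or in the mean of P and S panel cells. Of these, 247 (7.47%) were higher in members than in that mean in 8 of 8 pools, and 219 (6.62%) were lower in 8 of 8. By at least 2-fold, 58 were higher (1.75%) and 37 lower (1.12%). Ratios were taken as log2 of CPM plus 5. Ccl21a had the highest median ratio, 4.09 on that scale, at 1502 ± 1324 CPM in members. Its pools ran from 196 to 3424 CPM with a median of 1151, against 25.8 ± 37.7 in P and 68.8 ± 93.3 in S panel cells. Ccl21a has near-identical copies, so its reads may be split among them.

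Dclk1, a kinase of microtubules, followed with 71.1 ± 18.4 CPM in members (49.1 to 104 by pool), 3.12 in P and 1.54 in S panel cells, a median log2 ratio of 3.59. Ubd had 189 ± 36.4 CPM in members, 5.05 in P and 38.2 in S panel cells (3.30). Tgfbi, a matrix protein induced by TGF-beta, had 81.6 ± 16.1 against 3.96 and 9.20 CPM (3.12). Dsg2, a desmosomal cadherin, had 186 ± 30.7 against 15.1 and 40.1 CPM (2.58). The protease inhibitors Serpina1e, Serpina1b and Spint2, the matrix gene Ltbp2, Pglyrp1, Ms4a6b and 2200002D01Rik complete the 12 highest, with median log2 ratios of 1.97 to 3.01. The ranking is limited to genes with at least 50 CPM in members or the P and S mean and the same direction in 8 of 8 pools. The 46 members with no Enpp2 UMI did not share these levels, with median log2 ratios of −0.93 for Ccl21a, −1.62 for Ubd and −2.62 for Dsg2, from few counts. Serpina1b and Serpina1e belong to a family of near-identical copies. Not all of the 12 were particular to members. Ms4a6b had 72.0 CPM in arterial panel cells (62.2 in members) and Spint2 245 CPM in V panel cells (110 in members). Dsg2 was lower elsewhere, at 32.6, 44.2 and 42.6 CPM in arterial, Y (Apln, Prnd, Kit) and V panel cells. Aqp1, a water channel of capillaries and venules, was 2656 CPM in peripheral and 2299 CPM in mesenteric members.

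Lower in members were genes of P and S panel cells. Rbp7 had 246 ± 88.0 CPM in members against 1419 ± 298 in P and 1138 ± 599 in S panel cells, a median log2 ratio of −2.38. Plpp3 had 887 ± 183 against 3884 ± 803 and 1619 ± 454 CPM (−1.67). Cd36 had 289 ± 147 against 618 ± 521 and 906 ± 387 CPM (−1.52), and Btnl9 168 ± 63.5 against 541 ± 112 and 365 ± 157 CPM (−1.44). Ckb, Tnfaip2, Itm2a, Pcp4l1, Cst3, Mt1, Ehd4 and Hbegf complete the 12 lowest by the same limits, at −2.04 to −1.44. Y panel cells were as low as members in Rbp7 (236 CPM) and Plpp3 (720 CPM), and higher in Cd36 (441 CPM) and Itm2a (143 CPM). Against the 6.62% lower and 7.47% higher in 8 of 8 pools over all 3307 genes, 6 of 14 capillary genes with at least 50 CPM were lower and 1 higher. Of 6 genes of lysophosphatidic acid and sphingosine phosphate handling, 4 were lower. Of 15 immediate early genes 7 were lower, as were 4 of 11 heat shock genes, and both lists respond to tissue digestion. Of 10 antigen presentation genes 3 were higher and 0 lower.

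**Figure D2:**
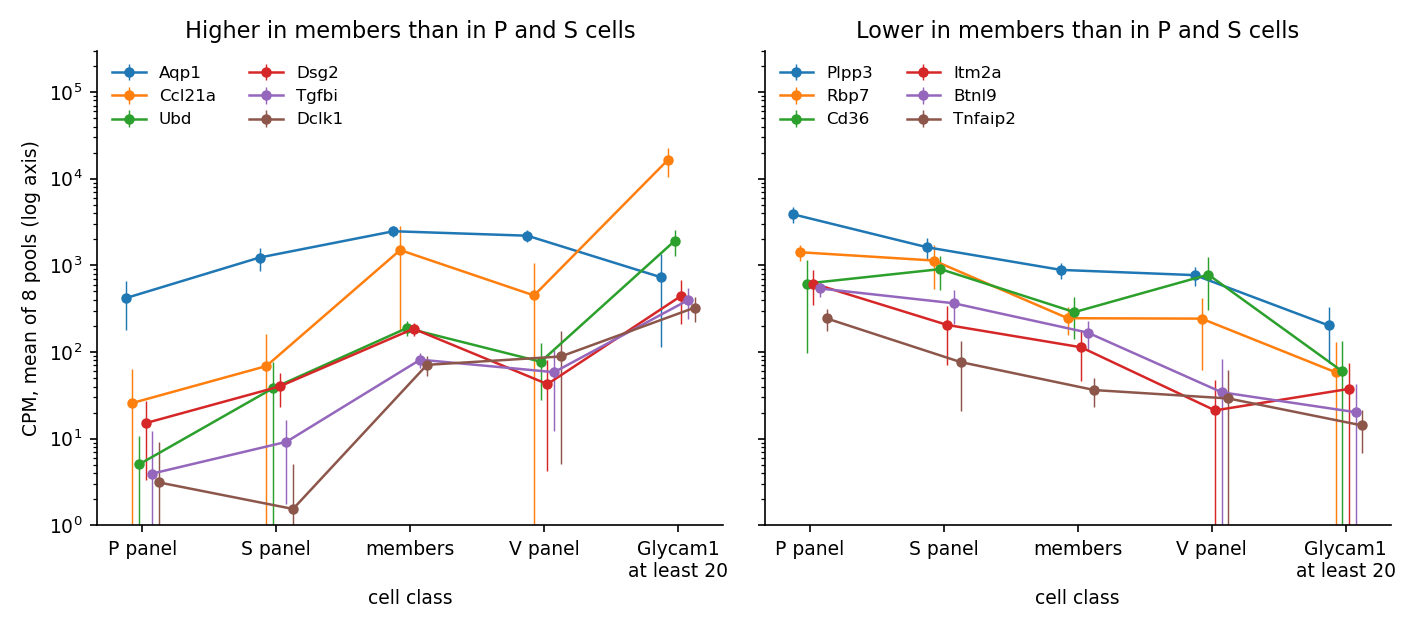
Mean CPM over 8 pools (log axis, bars are 1 SD and stop at 1 CPM) of 6 genes that were higher and 6 that were lower in members than in P and S panel cells, in 5 classes; lines join the values of a gene. Ccl21a stands at 25.8, 68.8, 1502, 450 and 16540 CPM from left to right, and Plpp3 is lower in members (887 CPM) than in P panel cells (3884 CPM).

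Members were also set against genes that part Glycam1-rich cells from P and S panel cells. Both ratios have the same P and S values as denominator, so a shared sign is partly built in and is no evidence of an intermediate state. For 58 genes that were at least 4-fold higher in Glycam1-rich cells than in P and S panel cells (median log2 ratio 3.27), the median member ratio was 1.27, and 39 of the 58 were higher in members in 8 of 8 pools, with 0 lower in all 8. The pool medians were 1.02, 1.27, 0.84 and 1.06 in peripheral and 1.34, 1.96, 2.07 and 1.70 in mesenteric members, without overlap. V panel cells, a venous class outside high endothelium, had a median of 1.43 for the same genes. That is above the member median, but below the mesenteric pools at 1.96, 2.07 and 1.70. For 103 genes at least 4-fold lower in Glycam1-rich cells (median −2.52), the member median was −0.67, with 66 lower in 8 of 8 pools and 1 higher in all 8, and the V panel median was −1.39. Each sum mixes cells of several clusters, so a middle value can come from a minority of cells.

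Thinned to equal depth, single genes of high endothelium were seen in a minority of members. Ccl21a was seen in 7.21% of 957 peripheral and 16.8% of 541 mesenteric members, with exact 95% intervals of 5.65% to 9.04% and 13.8% to 20.2%. In P and S panel cells the share was 3.09% to 5.65%, in V panel cells 12.1% and 15.1%, in lymphatic cells 5.72% and 7.35%, and in Glycam1-rich cells 63.2% and 81.4%. Lymphatic cells averaged 436 CPM of Ccl21a and may make it, so they are no background class for this gene. Ubd was seen in 17.1% and 19.8% of members, against 1.03% to 6.38% of P and S panel cells, 15.2% and 11.8% of V panel cells and 7.15% and 8.67% of lymphatic cells. Among members with no Glycam1 UMI at all, summed Ccl21a was 237 CPM in 592 peripheral and 1016 CPM in 331 mesenteric cells, against 18.1 and 61.5 CPM in P and S panel cells without Glycam1. Intervals cover counting error only.

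Members made up a larger share of blood endothelial cells in peripheral than in mesenteric nodes. In peripheral pools the share was 37.3% and 41.4% for WT and 44.0% and 39.4% for Xbp1-KO (library 1, then library 2). In mesenteric pools it was 23.1% and 25.6% for WT and 23.0% and 27.0% for Xbp1-KO. The tissues did not overlap: 40.6% ± 2.88 against 24.7% ± 1.98 (SD, n = 4 pools each), a difference of 15.9 percentage points. The two-sided exact permutation test gave p = 0.0286, the smallest that 4 against 4 allows, and 0.0571 after adjustment over 2 comparisons, so the difference did not pass the corrected threshold. With all passing cells as the denominator the shares were 19.5% ± 2.58 and 15.9% ± 2.42, with p = 0.114 (exact permutation). The sort and the tissue digestion can set such shares. By genotype the shares were 33.4% ± 9.97 in Xbp1-KO and 31.9% ± 8.88 in WT pools, with p = 0.771 (exact permutation, n = 4 each).

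**Figure D3:**
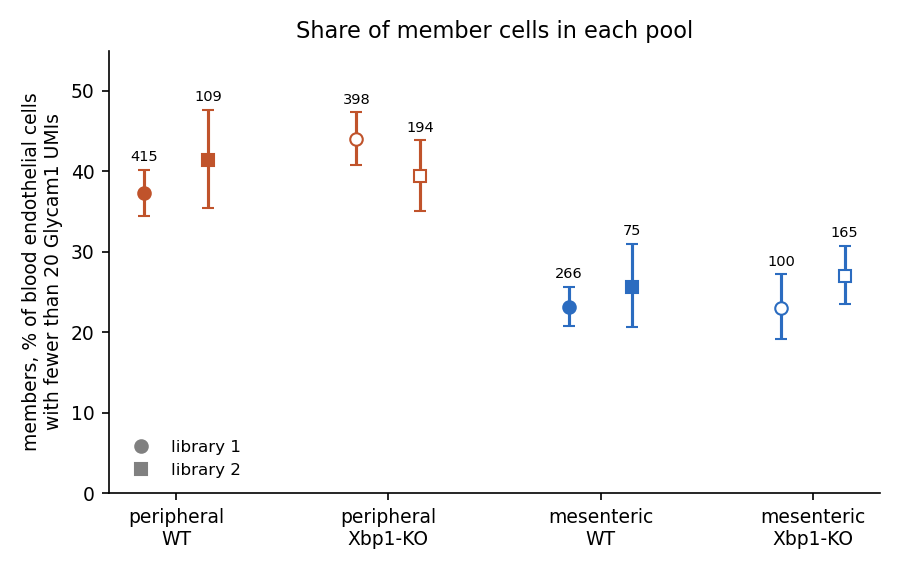
Members as a percentage of blood endothelial cells with fewer than 20 Glycam1 UMIs in each of 8 pools, with exact 95% binomial bars and the number of members above; circles are library 1, squares library 2, open symbols Xbp1-KO. The 4 peripheral pools sit at 37.3% to 44.0%, above the 4 mesenteric pools at 23.0% to 27.0%.

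The tissue comparison asked how members of peripheral and mesenteric nodes differ in expression. Members of mesenteric nodes had far more Nkx2-3 and Rassf9, and more Slco2a1, Tcf15, Cd36, Car4 and Hspa1a, while members of peripheral nodes had more Itih5, Cald1, S100a6, Slc14a1, Itm2a and Lmna. Madcam1, Ackr1, Ehd3 and Ccl21a were also higher in mesenteric members, and for these the difference was smaller without the 70 members of the Glycam1-led cluster, 63 of them mesenteric. Madcam1 and Ccl21a led that cluster, and the 1975 variable genes that formed the clusters could include the others. Ackr1, Ehd3, Ccl21a and Lrg1 were also at least 4-fold higher in Glycam1-rich cells than in P and S panel cells. For all of these genes the smaller difference is thus no independent result. Of 8390 genes tested with edgeR's quasi-likelihood test, 70 passed an adjusted p of 0.05 (0.834%), 26 higher in peripheral (0.31%) and 44 higher in mesenteric members (0.524%). A fit that treats the library as a block called 203 (2.42%), 91 higher in peripheral (1.08%) and 112 higher in mesenteric members (1.33%), including all 70. Of the 70, 5 are genes of the rule and are not described. Leaving out the 70 Glycam1-led cells left 36 calls (12 and 24), of which 34 were among the 70.

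Nkx2-3, a homeobox factor of gut-associated vessels (chromosome 19, 43612325 to 43615892), had 0, 0, 0.749 and 0 CPM in the peripheral pools, from 1 UMI in all. In the mesenteric pools it had 56.1, 71.3, 91.8 and 91.2 CPM. The groups are far apart, and with 1 UMI on the peripheral side the fitted log2 difference of −7.97 ± 0.44 (adjusted p = 5.13e-07) depends on the prior count. Nkx2-3 was also present in mesenteric P and S panel cells (93.8 and 53.9 CPM) and near 0 in their peripheral pools, and its difference in members did not pass against theirs (adjusted p = 0.993). Rassf9 had 13.3 to 23.3 CPM in peripheral and 103 to 178 CPM in mesenteric pools, a log2 difference of −2.92 ± 0.22 (adjusted p = 2.27e-06). It showed a like tissue pattern in S panel cells (16.2 and 125 CPM) and P panel cells (30.2 and 113 CPM).

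Slco2a1, a prostaglandin transporter (chromosome 9, 102988712 to 103096002), had 50.5, 45.7, 32.2 and 44.2 CPM in peripheral and 182, 211, 341 and 231 CPM in mesenteric pools. No pool overlapped, and the log2 difference was −2.46 ± 0.19 (adjusted p = 2.27e-06). Without the Glycam1-led cells it was −1.72 (adjusted p = 7.06e-05). In P panel cells Slco2a1 was 179 and 194 CPM and in S panel cells 82.8 and 122 CPM in peripheral and mesenteric pools. The tissue difference of members exceeded theirs by −2.25 ± 0.26 on the log2 scale (adjusted p = 1.40e-11, edgeR with the pool as a block), and by −1.54 (adjusted p = 6.75e-05) without the Glycam1-led cells. Without library 1 it was −1.75, and the adjusted p was 0.601 in a fit that rests on library 2 alone. In the peripheral pools of library 2, S panel cells had 49.0 and 32.6 CPM and members 45.7 and 44.2 CPM, so the lower mean of peripheral members did not hold against S panel cells in every pool.

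Madcam1, the addressin for gut-homing lymphocytes, had 13.3, 7.61, 5.99 and 3.68 CPM in peripheral and 301, 80.2, 483 and 583 CPM in mesenteric pools (log2 difference −5.42 ± 0.38, adjusted p = 1.43e-06). Without the Glycam1-led cells it was −2.14 (adjusted p = 0.0635). Ackr1, the atypical chemokine receptor of venules, had 6.14 to 15.2 and 53.5 to 136 CPM (−2.90 ± 0.25, adjusted p = 1.01e-05), and −0.30 (adjusted p = 1.0) without them. Ehd3, of membrane recycling, had 3.81 to 20.6 and 84.7 to 166 CPM (−2.85 ± 0.27, adjusted p = 2.54e-05), and −0.80 (adjusted p = 0.782) without them. Ccl21a had 300, 683, 484 and 196 against 1620, 1929, 3381 and 3424 CPM (−2.60 ± 0.27, adjusted p = 8.88e-05), and −0.76 (adjusted p = 0.861) without them. For these 4 genes the tissues did not overlap in any pool, yet the call ended once the 70 cells were left out. Madcam1 passed in 12 of 13 alternatives, among them the fit of the clusters made up mostly of members, which also leaves those cells out. Lrg1, a secreted glycoprotein of venules, was 329 ± 62.9 and 642 ± 64.0 CPM (−0.98 ± 0.16, adjusted p = 0.00654), and its sign turned without them (0.22, adjusted p = 0.982).

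Hamp, which encodes hepcidin, was uneven: 35.9, 0, 0 and 0 CPM in peripheral and 114, 92.1, 11.9 and 80.8 CPM in mesenteric pools. The peripheral WT pool of library 1 was above the mesenteric Xbp1-KO pool of that library, so the tissues overlapped. Its log2 difference was −5.35 ± 0.86 (adjusted p = 0.00654), −8.77 without library 1 and −1.77 without library 2. Tcf15, a helix-loop-helix factor of capillaries for fatty acid uptake, had 36.7 to 43.8 and 113 to 165 CPM (−1.89 ± 0.18, adjusted p = 3.43e-05). Cd36 had 126 to 210 and 335 to 475 CPM (−1.40 ± 0.17, adjusted p = 4.23e-04). Car4, carbonic anhydrase of capillary walls, had 55.2 to 83.5 and 131 to 178 CPM (−1.15 ± 0.17, adjusted p = 0.00275). Edn1, which encodes endothelin, and Ucp2, a mitochondrial carrier, were also higher in mesenteric members, by −1.59 ± 0.28 and −1.57 ± 0.28 on the log2 scale (adjusted p = 0.00876 and 0.0122). Ucp2 pools overlapped, at 19.6 to 41.9 and 32.6 to 90.1 CPM.

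On the peripheral side, Itih5, a hyaluronan-binding matrix protein, had 388, 327, 469 and 387 CPM against 130, 125, 107 and 116 CPM in mesenteric pools. The pools did not overlap, and the log2 difference was 1.70 ± 0.16 (adjusted p = 2.54e-05). Cald1, an actin-binding protein, had 76.1 to 130 against 17.8 to 49.98 CPM (1.94 ± 0.26, adjusted p = 0.00102). S100a6, a calcium-binding protein, had 271 to 501 against 76.2 to 167 CPM (1.68 ± 0.20, adjusted p = 3.40e-04). Slc14a1, a urea transporter, had 41.9 to 83.8 against 0 to 21.4 CPM (2.56 ± 0.39, adjusted p = 0.0034). Itm2a, Scd2, Emp3, Hoxd9, Serpine2, Lmna, Cdh13 and Adamts1 were higher by 1.04 to 1.54 on the log2 scale. Hoxd9, a homeobox gene, had 41.9 to 65.8 against 22.4 to 27.7 CPM (adjusted p = 0.0138). Without the Glycam1-led cells, Hoxd9 (adjusted p = 0.0513) and Serpine2 (adjusted p = 0.0635) fell outside the threshold. Members of the tissues also lay in different clusters, with 52.5% of peripheral and 26.1% of mesenteric members in the mostly-member clusters. Within those clusters Itm2a, Scd2, Hoxd9, Serpine2, Ehd3, Ccl21a, Edn1, Car4, Ch25h and Cldn5 no longer passed (adjusted p of 0.0565 to 0.982). Itih5, Cald1, S100a6, Slc14a1, Nkx2-3, Madcam1, Rassf9, Slco2a1, Tcf15 and Cd36 passed there, and the sign of Lrg1 turned.

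**Figure D4:**
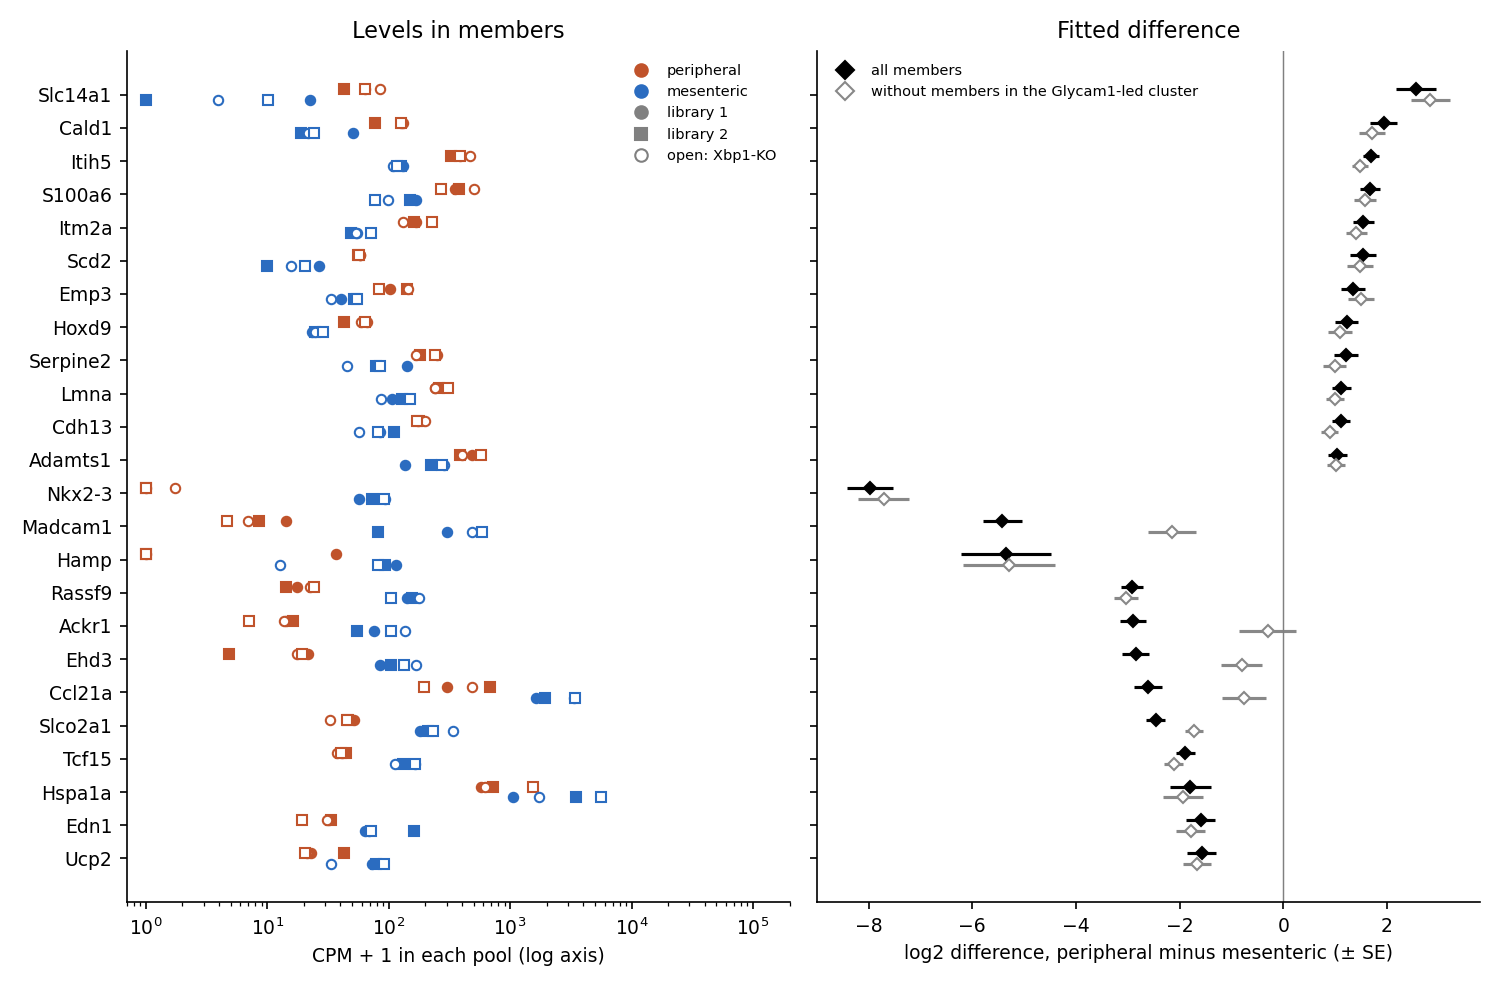
Left, CPM plus 1 (log axis) of the 24 named tissue genes in members of each pool, peripheral in orange and mesenteric in blue; right, the fitted log2 difference (peripheral minus mesenteric, bars are SE) for all members and without members in the Glycam1-led cluster. Ackr1, Ehd3, Ccl21a and Madcam1 move toward 0 in the second fit, from −2.90, −2.85, −2.60 and −5.42 to −0.30, −0.80, −0.76 and −2.14. Slco2a1 also moves toward 0, by less, to −1.72.

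By list, and against 0.834% of all genes tested, 5 of 16 measured capillary genes passed: Tcf15, Cd36, Car4 and Aqp7 were higher in mesenteric members and Cldn5, of tight junctions, in peripheral members (237 ± 40.3 against 137 ± 26.7 CPM, log2 difference 0.78 ± 0.15, adjusted p = 0.024). Cldn5 passed in 5 of 13 alternatives and not without library 1 (adjusted p = 0.0733), and it was 0.14 in the mostly-member clusters. The list median was −0.10, against 0.0067 over all genes tested. Of 15 high endothelial genes 4 passed, all higher in mesenteric members: Nkx2-3, Madcam1, Ccl21a and Ch25h, a sterol hydroxylase (32.1 ± 9.03 against 74.7 ± 14.9 CPM). Ch25h passed in 10 of 13 alternatives, and not without the Glycam1-led cells (−0.81, adjusted p = 0.319) or in members with fewer than 5 Glycam1 UMIs (−0.94, adjusted p = 0.183). Of 8 venous genes 2 passed, Ackr1 and Lrg1. All 12 heat shock genes were lower in peripheral members, with a median of −0.84, but only Hspa1a passed (869 ± 463 against 2973 ± 2033 CPM, with overlapping pools, −1.79 ± 0.39, adjusted p = 0.0454), and with the library as a block 7 passed, against 2.42% of all genes. Hspa1a and Hspa1b are near-identical, so their reads may be split. Cxcl1, a neutrophil chemokine, was higher in peripheral members (167 ± 32.6 against 101 ± 88.1 CPM, 1.02 ± 0.23, adjusted p = 0.0489) with overlapping pools, and by 0.39 (adjusted p = 0.654) without library 1.

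In the other lists no gene passed beyond Cd36 and Serpine2, which stand in the lipid and serpin lists. None of 35 endoplasmic reticulum genes, 15 interferon genes, 11 antigen presentation genes, 9 lysophosphatidic acid and sphingosine phosphate genes or 23 activin, TGF-beta and BMP genes passed, with list medians of −0.066, −0.012, 0.021, −0.15 and 0.0099. With the library as a block Eng of the BMP list passed, as did Fabp4, Fabp5 and Abcg1 of the lipid lists. Markers of leukocytes summed to 8.98 to 188 CPM in peripheral and 2.97 to 30.0 CPM in mesenteric members, and stromal markers to 3.68 to 78.0 and 5.94 to 285 CPM. Their part in the tissue differences was not tested.

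Most of the tissue differences were not shown to be particular to members. The difference between members and the mean of P and S panel cells was tested for 7062 genes with edgeR, the pool as a block, and 35 genes passed (0.496%), 15 toward peripheral (0.212%) and 20 toward mesenteric members (0.283%). Of the 24 named tissue genes, 5 were among them: S100a6, Madcam1, Ackr1, Ehd3 and Slco2a1. For S100a6 the value was 2.57 ± 0.26 (adjusted p = 1.0e-14), with 44.2 ± 22.8 and 272 ± 430 CPM in peripheral and mesenteric P panel cells, while S panel cells had 137 and 73.8 CPM, the same order as members. Lrg1 (−1.78, adjusted p = 1.61e-11) and Cxcl1 (−1.11, adjusted p = 0.0338) passed too. Madcam1 turned to 0.25 (adjusted p = 1.0) without library 1 and was −2.48 (adjusted p = 0.498) without the Glycam1-led cells. Ackr1 did not pass without library 1 (adjusted p = 1.0) or library 2 (adjusted p = 0.0774). Without a pool block 6 genes passed, and without library 1 5 passed. The mesenteric P panel sums hold 7 to 24 cells each, and stromal markers reached 6301 CPM in a single P panel sum, with a mean of 804 ± 2221 CPM over the 8; the part of either in these calls was not tested. Ehd3 passed without library 1 (−5.82, adjusted p = 1.31e-06) and without library 2 (−2.69, adjusted p = 0.0017), but not without the Glycam1-led cells (−1.66, adjusted p = 0.283).

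Vim, the intermediate filament gene, was not a named tissue gene but differed by class. It had 1024 ± 206 CPM in peripheral and 710 ± 258 CPM in mesenteric members, with overlapping pools, while P panel cells had 224 and 362 CPM and S panel cells 332 and 485 CPM. The difference of tissue effects was 1.13 ± 0.19 on the log2 scale (adjusted p = 1.26e-05). It passed against P cells alone, against S cells alone (1.02, adjusted p = 3.10e-06) and without the Glycam1-led cells (1.21, adjusted p = 6.24e-06). It did not pass without library 1 (0.90, adjusted p = 1.0) or without the block (1.16, adjusted p = 0.532).

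The genotype comparison asked what loss of Xbp1 did in members. Xbp1 itself was lower in Xbp1-KO members, which checks the pool tags, although reads of this 3′ assay may lie outside the deleted part. In peripheral pools Xbp1 had 187 and 162 CPM in WT and 114 and 115 CPM in Xbp1-KO (library 1, then 2). In mesenteric pools it had 295 and 276 CPM in WT and 148 and 166 CPM in Xbp1-KO. It was lower in the 4 of 4 pool pairs, and the ranges of the genotypes overlapped only across tissues. The log2 difference was −0.70 ± 0.15, with an adjusted p of 1.0 in the fit of group means and of 0.0313 with the library as a block (−0.69 ± 0.12). Xbp1 fell by 0.56 without library 1 and by 0.80 without library 2. The genotype difference of Xbp1 in members was not distinguishable from that in P and S panel cells (−0.0082 ± 0.24, adjusted p = 1.0).

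No gene passed for genotype in the group-mean fit with edgeR (0 of 8390, 0.0%), while 236 had an unadjusted p under 0.05. DESeq2 also called 0, and 62 genes had an unadjusted p under that value. Blocking on library gave 3 calls (0.0358%), of which Cxcl1 was higher (0.0119%) and Xbp1 and Dcn lower (0.0238%). Dcn, a fibroblast proteoglycan, came almost wholly from the mesenteric WT pool of library 1, at 189 CPM against 0 to 25.3 CPM elsewhere. Stromal markers summed to 285 CPM in that pool, but Dcn is itself in that list, so the sum is no separate evidence. Cxcl1 had 177, 129, 41.8 and 29.7 CPM in WT and 155, 206, 113 and 222 CPM in Xbp1-KO pools, a blocked log2 difference of 1.18 ± 0.19 (adjusted p = 0.0313). It was higher in 3 of 4 pool pairs and differed by 0.15 (adjusted p = 1.0) without library 2. Simulated 4-fold changes in these sums were recovered in 99% of 200 genes and simulated 2-fold changes in 57%, so smaller changes may have been missed.

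**Figure D5:**
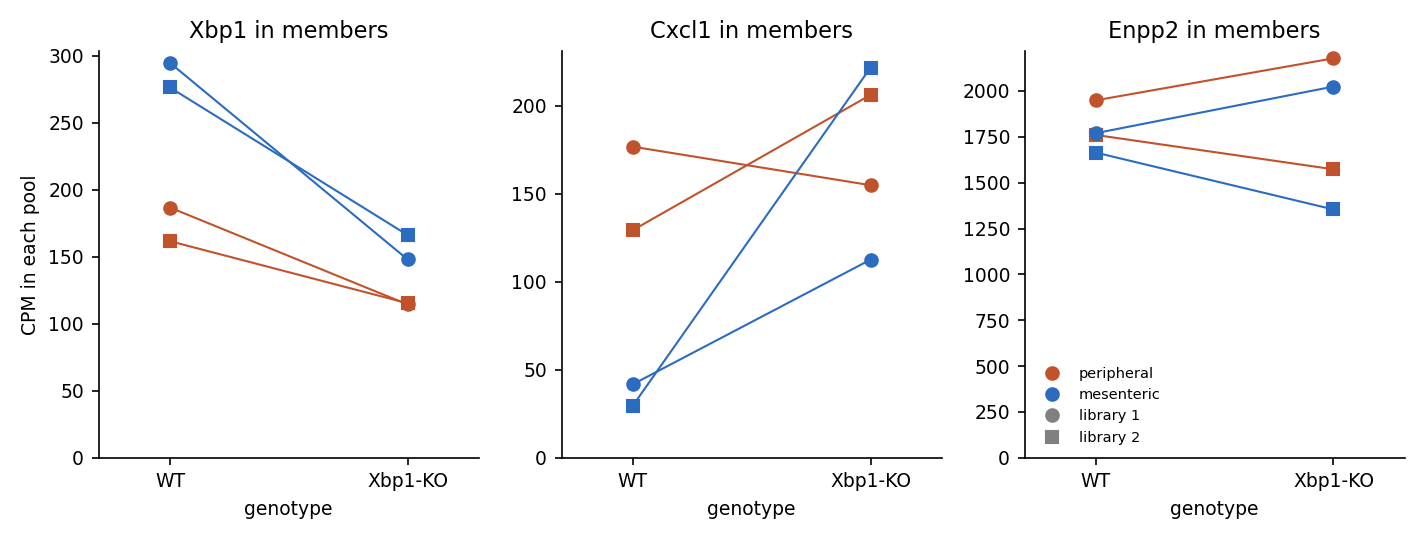
CPM of Xbp1, Cxcl1 and Enpp2 in members of WT and Xbp1-KO pools; lines join pools of the same library and tissue. Xbp1 is lower in Xbp1-KO in every pair, Cxcl1 rises mainly in mesenteric pairs, and Enpp2 (1354 to 2178 CPM) has no shared direction.

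Of 35 measured endoplasmic reticulum targets of XBP1, 26 were lower and 9 higher in Xbp1-KO members, none past the threshold, with a median log2 difference of −0.17 against 0.0055 over all genes. Their summed level was 4458 to 5235 CPM in WT and 4194 to 4530 CPM in Xbp1-KO pools, which overlap as groups. In pool pairs of the same library and tissue the sum was lower in Xbp1-KO in 4 of 4, from 4755 to 4472, 4764 to 4194, 5235 to 4530 and 4458 to 4255 CPM. The members of the list with the largest differences were Hyou1, a chaperone (−0.58 ± 0.34), Ssr1, of the translocon (−0.40 ± 0.20), and Rpn1, of the oligosaccharyltransferase (−0.40 ± 0.20). All 15 immediate early genes had a positive difference, with a median of 0.57, 12 at an unadjusted p under 0.05 and none past the adjusted threshold. Atf3 (0.87 ± 0.29) and Socs3 (0.87 ± 0.26) were the furthest. This list had a median of 0.86 without library 1, where 11 genes of the list passed among 62 of 7218 genes in all, and 0.085 without library 2, where 0 passed, and of 0.25 in peripheral and 0.83 in mesenteric nodes. Of the heat shock genes 10 of 12 were positive with a median of 0.47 and 0 passed, the median was 0.72 without library 1, where 6 passed, and −0.040 without library 2. The part of handling in either list was not tested. Immediate early RNA responds to digestion, and its summed level ran from 14200 to 24350 CPM in WT and from 18580 to 37220 CPM in Xbp1-KO pools.

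Within tissues no gene passed for genotype in the group-mean fit: 0 in peripheral and 0 in mesenteric members (0.0% each), with 115 and 282 at an unadjusted p under 0.05. DESeq2 called 0 and 1. Blocking on library called 0 in peripheral and 8 in mesenteric members (0.0954%), 7 higher (0.0834%) and 1 lower (0.0119%). The higher ones include the immediate early genes Fos and Socs3 and the heat shock gene Hsp90aa1, among others. The high endothelial list summed to 3878 and 3929 CPM in mesenteric WT and 5846 and 6101 CPM in mesenteric Xbp1-KO members (library 1, then 2). In peripheral members it was 2157 and 2470 against 2336 and 2387 CPM. These sums were not tested. The interaction of tissue and genotype had 0 calls (0.0%) with either edgeR fit and with DESeq2, and 185 genes at an unadjusted p under 0.05 in the group-mean fit. Simulated 2-fold interactions were recovered for 0.5% of 200 genes and 4-fold interactions for 56%. Against P and S panel cells, the genotype difference passed for 1 gene of 7062 (0.0142%), the interferon-induced Ifi27l2a, which was higher in 2 and lower in 2 of the 4 pool pairs of members.

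A fit with the library block and a sex term taken from Xist called 42 genes for genotype (0.501%), 38 higher (0.453%) and 4 lower (0.0477%) in Xbp1-KO members, and 14 of the 15 immediate early genes were among them. Within tissues it called 10 in peripheral members (0.119%), 1 higher (0.0119%) and 9 lower (0.107%), and 56 in mesenteric members (0.667%), 52 higher (0.62%) and 4 lower (0.0477%). For the interaction it called 20, all lower (0.238%), and for tissue 288 (3.43%), 147 higher (1.75%) and 141 lower (1.68%). With 1 library for each match of sex and genotype, a sex effect and a difference in genotype response between libraries cannot be told apart.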

How the data were processed

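Raw UMI counts per gene and barcode, and tag counts, were deposited by the authors as filtered Cell Ranger matrices (version 6.0.1 per the file headers, 6.1 and build mm10 per the submitters' processing notes). The chemistry is given as 3′ v3 in the design text, and whether counting used strand is not given in the sources used here. Of 32285 gene IDs, 32235 were found in GENCODE M21 (GRCm38), which gave positions. Cells needed at least 500 genes, at most 10% mitochondrial UMIs and a top tag of at least 10 UMIs and 3 times the next, and 551 cells failed only the tag rule. The cells, panels and gene lists were chosen with earlier results of these data known, so none is independent evidence. Scrublet marked 240 and 10 cells by library, too few in library 2 to count as a working call there, and marked cells were kept.

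Counts of members were summed per library and pool and tested with edgeR 4.0.16 (R 4.3.3, limma 3.58.1): filterByExpr, TMM, the quasi-likelihood test and Benjamini-Hochberg adjustment at 0.05. All adjusted p-values in the text come from this test unless DESeq2 1.42.0 is named. Tissue and genotype were contrasts of the 4 group means; class comparisons took the mean of P and S panel sums, with the pool as a block. Libraries share replicate numbers with the labels, and same-library pools deviated together (r of 0.201 to 0.439 in all 6 pairs of groups over 4568 genes), so the library was also fitted as a block. Shares were compared with two-sided exact permutation tests. Named genes were the 12 largest differences per direction among calls with a mean of at least 30 CPM and the same direction in 4 of 4 pairs, the 12 highest and lowest class ratios and 6 class-by-tissue differences per direction. Rule genes were left out, and called genes of the fixed lists were added. Ratios between classes used log2 of CPM plus 5. Clustering used scanpy 1.11.5 in Python 3.11.15 with 1975 genes, 30 components, 15 neighbours and resolution 1 and left out the genes of the rule. On simulated counts for 8390 genes, 61.5% of 200 genes changed 2-fold and 96% changed 4-fold between tissues were recovered, and 26% and 77% in the class-by-tissue fit. Alternatives were other filters, scaling, rules for members, DESeq2, a sex term and leaving out each library.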

Additional observations from a re-analysis of the deposited data

Results flagged for a closer look

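Of 60 groups of 4 pools checked, 7 had 1 pool apart from the other 3 by more than Dixon's critical gap, where chance gives about 1 in 20. Cald1 was low in the peripheral WT pool of library 2, at 76.1 CPM against 124 to 130 in the other peripheral pools. It was also high in the mesenteric WT pool of library 1, at 49.98 CPM against 17.8 to 23.1. Nkx2-3 stood at 0.749 CPM in the peripheral Xbp1-KO pool of library 1, from 1 UMI, and at 0 in the other peripheral pools. Hamp stood at 35.9 CPM in the peripheral WT pool of library 1 and at 0 in the other peripheral pools. Hspa1a was 1557 CPM in the peripheral Xbp1-KO pool of library 2, against 576 to 725. Edn1 was 160.5 CPM in the mesenteric WT pool of library 2, against 63.2 to 70.5. Ucp2 was 41.9 CPM in the peripheral WT pool of library 2, against 19.6 to 21.9.

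The tissue difference of 12 named genes differed between members and the other capillary classes, tested with edgeR and the pool as a block and given as members minus the mean of P and S panel cells on the log2 scale. Toward peripheral members were Zeb2 (2.90), Stmn1 (1.40), Thbs1 (1.26), Vim (1.13), Lama4 (0.93) and Marcks (0.79). A positive value need not mean a higher peripheral level: Thbs1 was 96.2 ± 11.5 CPM in peripheral and 262 ± 61.0 CPM in mesenteric members without overlap, a smaller mesenteric excess than in P and S panel cells. Toward mesenteric members were Ackr1 (−5.97), Madcam1 (−5.82), Lhx6 (−4.23), Tspan7 (−4.19), Ehd3 (−3.56) and Slco2a1 (−2.25). Lhx6, Tspan7 and Ackr1 were at 0 CPM in all 4 mesenteric P panel sums, which hold 7 to 24 cells, so their fitted values depend on the prior count. In members Lhx6 was 27.1 CPM in peripheral and 24.5 CPM in mesenteric pools, and against S panel cells alone Lhx6 gave −0.75 (adjusted p = 0.941) and Tspan7 −1.14 (adjusted p = 0.14). Zeb2 gave 1.54 (adjusted p = 0.917) against S panel cells alone, with 224 CPM in a single mesenteric P panel sum. Against the same S panel cells, Stmn1 (adjusted p = 0.459), Lama4 (0.925) and Marcks (0.925) did not pass either. Stmn1 passed in 0 of 7 alternatives, and Thbs1 and Lama4 in 1 of 7 each. Without the pool block, Ackr1, Madcam1, Ehd3 and Slco2a1 passed, and the other 8 did not.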

How the results depend on the processing

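Over all alternatives tried, 31 tissue genes gave 356 values with direction and call kept, 41 with the call lost and 2 reversed; 12 class-by-tissue genes gave 35, 45 and 1; 9 counts and shares gave 58 kept, 31 moved and 2 reversed; 26 class levels gave 122 kept, 24 moved and 10 reversed. The cause of these shifts was not tested, except that fewer cells were summed where cells or a library were left out. Alternatives that leave out clusters were chosen after seeing the data.

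The 70 tissue calls became 203 with the library as a replicate block, 288 with the sex term, 206 with no filter, 115 to 190 without 1 library, 36 without the Glycam1-led cluster and 35 with the 2 mostly-member clusters only. The 0 genotype calls became 3, 42, 26, 18 to 62 and, in those clusters, 3. In peripheral nodes they became 10 with the sex term and 38 with no filter, and in mesenteric nodes 8 (block), 56 (sex term), 38 (no filter), 1 (T sum of at least 3), 1 (DESeq2) and 4 (mostly-member clusters). The interaction gave 20 with the sex term and 23 with no filter. It was not fitted with a library left out. The 35 class-by-tissue calls became 6 with no replicate block, 17 without the Glycam1-led cluster and 5 to 24 without 1 library. The 1 class-by-genotype call became 0 with no block and without either library, and 8 against P or S cells alone.

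Lrg1 reversed to 0.22 without the Glycam1-led cluster and 0.015 in the mostly-member clusters. The class-by-tissue value of Madcam1 ran from −8.30 to 0.25 without 1 library. The genotype difference in member share was −0.289 points among all cells and −0.281 to 3.30 without 1 library. The 46 members without an Enpp2 UMI had class ratios of −0.93 (Ccl21a), 0.0 (Dclk1, Serpina1e), −1.62 (Ubd), −0.64 (Tgfbi), −1.56 (Ltbp2), −2.62 (Dsg2), −1.25 (Pglyrp1), −0.97 (Ms4a6b) and −2.52 (Spint2), from few counts.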
